A study of Mus musculus with 8 samples.

Results

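The 9 genes described here encode RNA-binding proteins that regulate splicing in male germ cells: *Ptbp1*, *Ptbp2*, *Ptbp3*, *Khdrbs1*, *Khdrbs2*, *Khdrbs3*, *Qk*, *Rbm5* and *Srsf10*. They were chosen by name for what they are known to do, with earlier results of these data known, and were found by Entrez identifier among the 21058 genes quantified. Their transcript abundance was compared by RNA-seq between 4 *Arid1a* WT and 4 *Arid1a* cKO libraries of Sta-Put purified pachytene spermatocytes. The *Arid1a* cKO is a germ-cell deletion of *Arid1a*, which encodes a chromatin remodeler subunit, and the deletion was not complete. *Arid1a* cKO males combined 2 floxed alleles (*Arid1a* fl/fl) with 1 copy of the *Stra8-Cre* transgene (*Stra8-Cre* Tg/0), which acts from the spermatogonia onward. *Arid1a* WT males were *Arid1a* fl/fl or *Arid1a* fl/+, with no Cre given for them, and the floxed line was on a CD1 background. Both genotypes were adults older than 60 days, and each purification pooled the testes of at least 12 males into fractions with more than 80% pachytene spermatocytes by light microscopy. Excision by *Stra8-Cre* was described as inefficient, so that *Arid1a* cKO fractions can hold cells that kept the gene. The study detected no ARID1A protein in most, but not all, *Arid1a* cKO pachytene spermatocytes. It also reported that spermatocytes lacking the protein arrest at mid-pachynema. Whether the fractions of the genotypes differed in meiotic stage was not tested. The labels call the libraries biological replicates, and the p-values given here measure the spread between these libraries. RNA was extracted in quadruplicate from frozen cell pellets, and whether each library came from a separate purification is not stated. If libraries shared a purification, their spread would not include that between purifications or between groups of males.

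Pre-mRNA splicing removes introns, and regulatory proteins bound to the RNA decide which exons are kept. PTBP proteins bind pyrimidine-rich stretches and mostly repress exons. PTBP1 is widely expressed, PTBP2 is the neuronal and germ-cell form, and PTBP3 is best known from blood cells. The KHDRBS proteins (KHDRBS1 is SAM68, KHDRBS2 is SLM1 and KHDRBS3 is SLM2, also called T-STAR) bind A- and U-rich motifs through a KH domain, as does quaking, the product of *Qk*. RBM5 is a spliceosome-associated protein needed for spermatid differentiation, and SRSF10 is an SR-like protein that can repress splicing when dephosphorylated. Loss of *Ptbp2*, *Khdrbs1*, *Rbm5* or *Srsf10* impairs spermatogenesis in mice.

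Promoter records (RefSeq, GRCm38.p6) matched 6 of the 9 genes, namely *Ptbp1*, *Ptbp2*, *Khdrbs2*, *Qk*, *Rbm5* and *Srsf10*, and had no match for *Ptbp3*, *Khdrbs1* and *Khdrbs3*. The records give the 250 bases before one RefSeq transcription start, which need not be the outermost start of the gene. The *Ptbp2* and *Srsf10* windows lie inside the gene spans given below, and the *Khdrbs2* and *Rbm5* windows partly so. Windows are shown for *Ptbp1*, the called gene with the smallest fall in counts, for *Rbm5*, the gene with the largest fall, and for *Khdrbs2*, the gene that was barely detected. Capitals mark matches to 3 patterns, each searched on both strands. The CCAAT box is written with its own letters. The GC box was searched as GGGCGG. The MYB core was searched as AACTG. The *Ptbp1* stretch is chr10:79854182-79854431 on the plus strand, *Rbm5* is chr9:107771003-107771252 on the minus strand, and *Khdrbs2* is chr1:32172472-32172721 on the plus strand.
Ptbp1: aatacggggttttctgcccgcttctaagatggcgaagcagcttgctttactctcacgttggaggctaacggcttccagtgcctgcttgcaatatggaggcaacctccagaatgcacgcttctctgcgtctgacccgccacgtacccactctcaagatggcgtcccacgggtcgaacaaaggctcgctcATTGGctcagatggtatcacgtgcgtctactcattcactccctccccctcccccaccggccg
Rbm5: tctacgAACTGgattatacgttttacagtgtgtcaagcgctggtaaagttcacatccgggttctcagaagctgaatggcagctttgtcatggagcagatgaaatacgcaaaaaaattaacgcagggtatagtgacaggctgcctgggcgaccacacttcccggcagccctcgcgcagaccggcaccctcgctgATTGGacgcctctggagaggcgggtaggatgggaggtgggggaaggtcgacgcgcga
Khdrbs2: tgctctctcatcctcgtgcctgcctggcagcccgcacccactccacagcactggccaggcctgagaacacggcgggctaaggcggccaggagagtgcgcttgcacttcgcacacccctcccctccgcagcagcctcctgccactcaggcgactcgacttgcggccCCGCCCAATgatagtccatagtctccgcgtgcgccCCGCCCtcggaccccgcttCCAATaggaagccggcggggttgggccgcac

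The *Ptbp1* stretch held 1 CCAAT match, and the *Rbm5* stretch held 1 CCAAT match and 1 MYB core. The *Khdrbs2* stretch held 2 CCAAT matches and 2 GC boxes, with one of each overlapping. Among 32851 promoters of the same length, 33.8% had a CCAAT match, 32.7% a GC box and 39.1% a MYB core. The 6 promoters had a G and C content of 57.6% (*Ptbp1*), 72.4% (*Ptbp2*), 68.8% (*Khdrbs2*), 84.8% (*Qk*), 55.6% (*Rbm5*) and 72% (*Srsf10*), all above the median of 52.4% over all promoters. The GC box was matched 6 times in *Ptbp2*, 5 times in *Qk* and 3 times in *Srsf10*. No letter pattern was shared by all 6 promoters among the 5 searched, the other 2 being TGACG (17.8% of promoters, matched in *Srsf10*) and TATAAA (12.4% of promoters, matched in none of the 6). These matches describe letters in the window and were not tested as binding sites.

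Of the 9 splicing regulators, 8 were less abundant in *Arid1a* cKO than in *Arid1a* WT pachytene spermatocytes and none was more abundant, in estimated counts. With offsets for transcript length, or in TPM as deposited (a unit corrected for transcript length), *Ptbp3* was no longer called, which leaves 7 of the 9. *Rbm5* fell the most, by 5.05-fold. In counts *Ptbp1* fell the least, by 1.19-fold, while in TPM *Ptbp3* kept more of its *Arid1a* WT level (85.6%) than *Ptbp1* did (76.3%). *Khdrbs2* was close to the detection limit in both genotypes. Calls rest on edgeR (quasi-likelihood F test, Benjamini-Hochberg adjusted p at a threshold of 0.05), fitted to all 17643 genes with at least 10 estimated counts over the 8 libraries. In this comparison 74% of all genes tested were called, 37.5% lower and 36.5% higher in *Arid1a* cKO, so being called lower is common in these data. All 4 *Arid1a* cKO libraries lay below all 4 *Arid1a* WT libraries for the same 8 regulators, and for 34.9% of all genes tested. The median log2 fold change was -1.12 over the 9 regulators and -0.02 over all genes, and 5 of the 9 were called with a fall of at least 1 log2 unit, against 16% of all genes. No regulator was higher at an unadjusted p under 0.05 in edgeR.

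**Figure D1:**
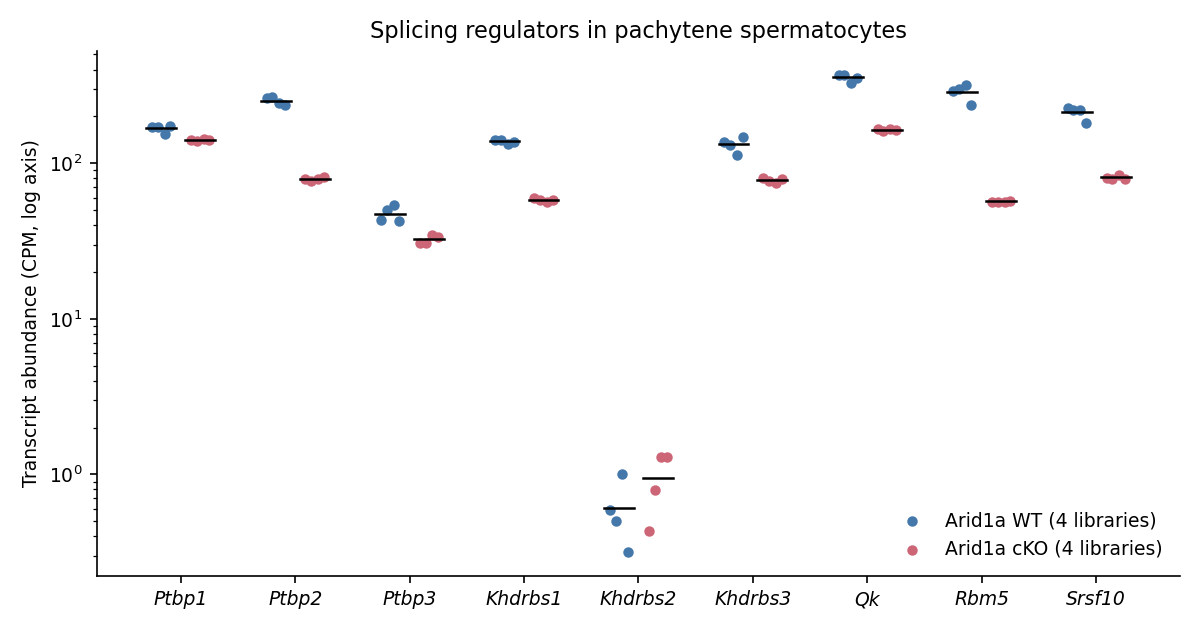
Transcript abundance of the 9 splicing regulators in CPM (log axis), with 1 point per library and a bar at the mean of 4 libraries. CPM are estimated counts scaled by library sizes that were adjusted by TMM. The *Arid1a* cKO points lie below the *Arid1a* WT points for every gene but *Khdrbs2*, whose points overlap, and the *Rbm5* points are the farthest apart, at 236 to 318 CPM against 56.5 to 57.2 CPM.

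The targeted gene and the markers of testis cell types were read in the same libraries. *Arid1a* itself was at 105, 128, 121 and 98.8 CPM in *Arid1a* WT and at 76.4, 81, 82.9 and 78.3 CPM in *Arid1a* cKO libraries. The groups did not overlap, and the log2 fold change was -0.51 (SE 0.07, edgeR adjusted p = 2.31e-05). *Arid1a* transcripts from escaper cells, and transcripts that lack the floxed exons, are both counted in these values. Libraries held 18308688 to 22044507 estimated counts in *Arid1a* WT and 15850961 to 21626772 in *Arid1a* cKO. The fractions also differed in markers of other testis cells, summed in TPM (a unit scaled to one common library total that also corrects for transcript length). All 16 markers of round and elongating spermatids were higher in *Arid1a* cKO, with a summed abundance of 6540 to 7410 TPM in *Arid1a* WT and 26900 to 28600 TPM in *Arid1a* cKO. All 10 Sertoli cell markers were lower (470 to 545 TPM and 139 to 144 TPM), as were 5 of 6 Leydig cell markers (76.7 to 89.9 TPM and 6.96 to 8.59 TPM). Of 14 pachytene markers, 8 were lower and 4 higher, and their sum went from between 10200 and 11200 TPM to between 8670 and 8690 TPM. Spermatogonial markers summed to 125 to 134 TPM and 122 to 132 TPM (8 of 11 higher, 2 lower), and leptotene and zygotene markers to 176 to 205 TPM and 178 to 185 TPM (5 of 8 higher, 3 lower). Within the spermatogonial sum *Id4* went from 35.2 to 5.09 TPM and *Dmrt1* from 15.7 to 25.9 TPM. Within the leptotene and zygotene sum *Spo11* went from 108 to 16.1 TPM and *Rec8* from 18 to 91.6 TPM. Markers of macrophages and blood (6 of 8 higher, 1 lower) and of stroma (4 of 6 higher, 1 lower) summed to at most 13.3 TPM and 10.4 TPM in any library. No marker found in the tables was at 0 in all libraries. Of the lists, 8 of 10 leptotene and zygotene markers and 8 of 9 macrophage and blood markers were found there, and all of the others. The pachytene sum was carried by *Ldhc*, *Ybx2* and *Hspa2*, at 4760, 2710 and 1250 TPM in *Arid1a* WT and 3790, 2310 and 940 TPM in *Arid1a* cKO. Single pachytene markers went far apart. *Piwil1* went from 598 to 36.9 TPM, *Tdrd1* from 144 to 19.5 TPM and *Mlh3* from 30.7 to 5.64 TPM, whereas *Spag6* went from 32.2 to 213 TPM. The part of these other cells in the results on the splicing regulators was not tested, and in bulk RNA fewer cells of a type and less RNA per cell cannot be told apart.

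The PTBP genes differed in how far they changed, and the call for *Ptbp3* depended on the scale. *Ptbp2* (Entrez 56195, chr3:119718741-119784647), the neuronal and germ-cell form, was at 262, 266, 244 and 236 CPM in *Arid1a* WT libraries. In *Arid1a* cKO libraries it was at 79.7, 76.7, 79.4 and 81.4 CPM. Every *Arid1a* cKO library held less than any *Arid1a* WT library, and the gap was far wider than the spread within either group. This is a log2 fold change of -1.67 (SE 0.05, edgeR adjusted p = 8.34e-13) and a 3.18-fold lower level, and 5.54% of all genes tested had a lower log2 fold change.

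*Ptbp1* (Entrez 19205, chr10:79854432-79864435), the repressor found in most cell types, was at 171, 171, 155 and 173 CPM in *Arid1a* WT and at 142, 139, 143 and 140 CPM in *Arid1a* cKO libraries. Its groups were close but did not overlap, with *Arid1a* WT replicate 3 the nearest to the *Arid1a* cKO libraries. The log2 fold change was -0.25 (SE 0.05, edgeR adjusted p = 0.000298), and 41.8% of all genes tested had a lower one. Its size depended on the scale, at -0.39 in limma on log2(TPM + 1) and -0.54 on TPM rescaled to the listed genes. The *Ptbp1* value carries a further limit, because 27.5% of the 31-base words in its annotated transcripts also occur in other genes. These were led by *Gm4900* with 11.1% and by genes on the opposite strand that overlap it, *Gm17134* with 7.63%, *E130317F20Rik* with 5.31% and *Plppr3* with 3.35%. How reads were split among them, and whether strand was used, is not given in the sources used here.

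*Ptbp3* (Entrez 230257, chr4:59471868-59549378) was the weakest of the PTBP genes, at 43.2, 49.7, 53.5 and 42.4 CPM in *Arid1a* WT and 30.7, 30.6, 34.8 and 33.7 CPM in *Arid1a* cKO libraries. In counts it was lower without overlap, with a log2 fold change of -0.54 (SE 0.08, edgeR adjusted p = 2.1e-05). This call depended on how the length of the transcripts was taken into account. It was lost with length offsets in edgeR (-0.12, adjusted p = 0.274) and in TPM as deposited, but held in limma on TPM rescaled to the listed genes (-0.34, adjusted p = 0.0208). In TPM as deposited the mean was 14.9 ± 2.58 in *Arid1a* WT and 12.8 ± 0.81 in *Arid1a* cKO (SD, n = 4 libraries each), 85.6% of the *Arid1a* WT level.

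TPM divides counts by transcript length, so levels of different genes can be set side by side on this scale. *Ptbp2* was the most abundant PTBP gene in *Arid1a* WT, at 210 ± 27.2 TPM, with *Ptbp1* at 113 ± 8.46 TPM (SD, n = 4). In *Arid1a* cKO the same genes were nearly equal, at 86.5 ± 5.71 TPM for *Ptbp2* and 86.3 ± 4.37 TPM for *Ptbp1*. The ratio of *Ptbp2* to *Ptbp1* was 1.87, 1.93, 1.91 and 1.69 in the *Arid1a* WT libraries and 0.956, 0.996, 0.944 and 1.12 in the *Arid1a* cKO libraries. Those ranges were well apart, and the log2 ratio differed by -0.88 (two-sided exact permutation test, p = 0.0286, 0.0571 after adjustment over 6 ratios). The p of 0.0286 is the smallest that 4 against 4 libraries can give, and the 3 ratios that reached it did not pass 0.05 after adjustment. In estimated counts the same 3 did, each at an adjusted exact permutation p of 0.0429, and *Ptbp2* to *Ptbp1* differed by -1.42 on the log2 scale. The adjusted value was lower there only because *Ptbp3* to *Ptbp1* also reached the smallest p, so it adds no support for these 3. *Ptbp2* made up 62% ± 1.56 of the summed PTBP abundance in *Arid1a* WT and 46.6% ± 1.87 in *Arid1a* cKO, while *Ptbp1* went from 33.6% to 46.5% and *Ptbp3* from 4.43% to 6.9% (SD, n = 4). The ratio of *Ptbp2* to *Ptbp3* differed by -1.06 on the log2 scale (exact permutation p = 0.0286, adjusted 0.0571), and that of *Ptbp3* to *Ptbp1* by 0.18 (p = 0.229, adjusted 0.229). The ratio of *Ptbp3* to *Ptbp1* turned to a difference of -0.29 (exact permutation, adjusted p = 0.0429) when it was taken in estimated counts, so its direction depends on the length scale.

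**Figure D2:**
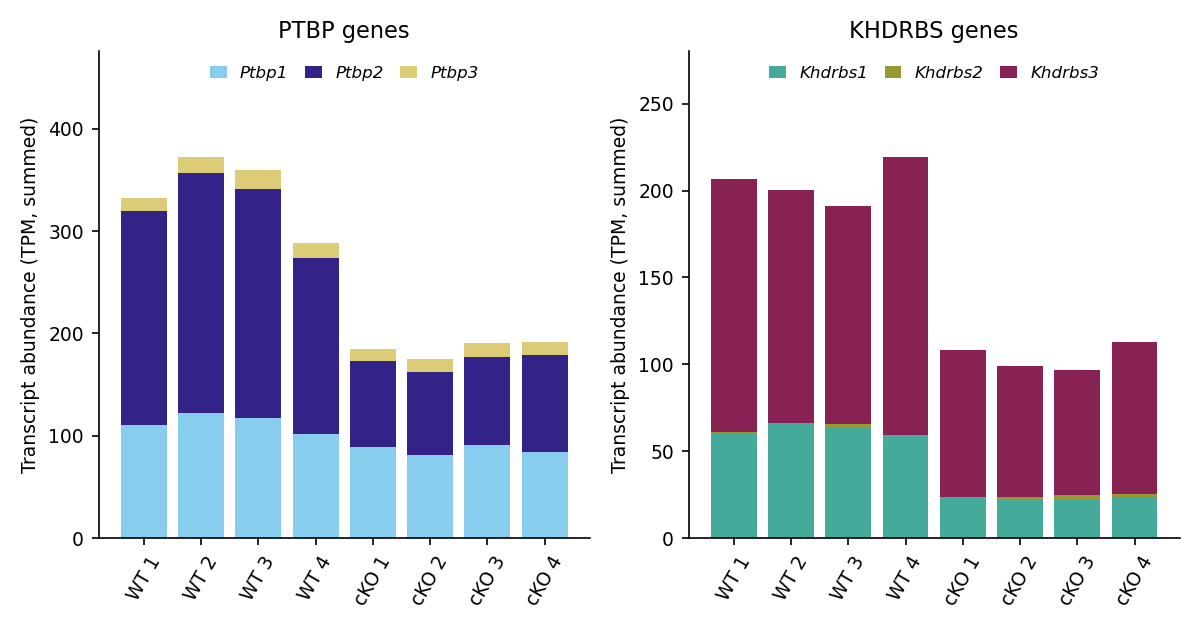
Summed transcript abundance (TPM, linear axis from 0) of the PTBP genes and of the KHDRBS genes in each of the 8 libraries, with 1 stacked bar per library. PTBP bars reach 289 to 371 TPM in *Arid1a* WT and 175 to 192 TPM in *Arid1a* cKO, where *Ptbp2* makes up 45.1% to 49.3% and *Ptbp1* 44% to 47.9% of a bar, and KHDRBS bars reach 191 to 219 TPM and 96.6 to 113 TPM.

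Among the KHDRBS genes, both that were well expressed fell. *Khdrbs1* (Entrez 20218, chr4:129702380-129743878), which encodes the widely expressed SAM68, was at 140, 142, 133 and 137 CPM in *Arid1a* WT and 59.7, 58.3, 56.4 and 58.2 CPM in *Arid1a* cKO libraries. Both groups were tight, and they lay far apart. The difference was -1.25 as a log2 fold change (SE 0.05, edgeR adjusted p = 4.59e-12), a 2.37-fold lower level.

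*Khdrbs3* (Entrez 13992, chr15:68928392-69101794), the testis-enriched T-STAR, was at 137, 131, 113 and 147 CPM in *Arid1a* WT and at 79.8, 76.8, 74.8 and 79.2 CPM in *Arid1a* cKO libraries. The *Arid1a* WT libraries were spread more widely than the *Arid1a* cKO libraries, with no overlap. The log2 fold change was -0.76 (SE 0.07, edgeR adjusted p = 1.42e-07), and 23.7% of all genes tested had a lower one.

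*Khdrbs2* (Entrez 170771, chr1:32172602-32705224), the neuronal SLM1, had 12, 11, 20 and 7 estimated counts in *Arid1a* WT and 8, 14, 27 and 20 in *Arid1a* cKO libraries. The groups overlap and the counts are too few for a firm value. Its log2 fold change was 0.66 (SE 0.39, edgeR adjusted p = 0.14), with 0.43 to 1.49 over the other tests and scalings, and it moved past the threshold when 1 library was left out. Without *Arid1a* cKO replicate 1 it was 0.91 (edgeR adjusted p = 0.038), and without *Arid1a* WT replicate 3 it was 1.01 (edgeR adjusted p = 0.0295).

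*Khdrbs1* kept 37% and *Khdrbs3* 56.6% of the *Arid1a* WT level in TPM, going from 62.2 ± 3.11 to 23 ± 0.392 TPM and from 141 ± 15 to 79.9 ± 7.36 TPM (SD, n = 4). *Khdrbs3* was the more abundant of the pair in every library. Its ratio to *Khdrbs1* was 2.4, 2.03, 1.98 and 2.71 in *Arid1a* WT and 3.62, 3.32, 3.17 and 3.73 in *Arid1a* cKO libraries. The *Arid1a* cKO ratios were all higher, by 0.61 on the log2 scale (exact permutation test, p = 0.0286, adjusted 0.0571). *Khdrbs3* made up 69% ± 3.41 of the summed KHDRBS abundance in *Arid1a* WT and 76.6% ± 1.69 in *Arid1a* cKO (SD, n = 4). The ratios of *Khdrbs2* to *Khdrbs1* and to *Khdrbs3* rest on its few counts and differed by 2.52 (exact permutation p = 0.0571, adjusted 0.0857) and 1.91 (p = 0.143, adjusted 0.171).

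*Qk* (Entrez 19317, chr17:10206471-10319361), whose product is a KH-domain protein of the STAR family like SAM68, had the highest counts of the 9 genes. It was at 371, 370, 329 and 353 CPM in *Arid1a* WT and 166, 160, 165 and 164 CPM in *Arid1a* cKO libraries. All *Arid1a* cKO libraries were below all *Arid1a* WT libraries, with a log2 fold change of -1.12 (SE 0.05, edgeR adjusted p = 5.19e-11) and a 2.17-fold lower level. In TPM, *Qk* went from 137 ± 7.57 to 56.7 ± 1.84 (SD, n = 4), which is 41.5% of the *Arid1a* WT level.

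*Rbm5* (Entrez 83486, chr9:107740495-107771007), which acts in spliceosome assembly and is needed for round spermatids to differentiate, showed the largest fall of the 9. It was at 290, 302, 318 and 236 CPM in *Arid1a* WT and 56.5, 56.7, 56.6 and 57.2 CPM in *Arid1a* cKO libraries. *Arid1a* WT replicate 4 was the lowest of its group, and still far above every *Arid1a* cKO library. The log2 fold change was -2.34 (SE 0.08, edgeR adjusted p = 2.36e-12), and only 304 of the 17643 genes tested (1.72%) had a lower one. In TPM it went from 151 ± 19 to 31.2 ± 1.4 (SD, n = 4), 20.7% of the *Arid1a* WT level.

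*Srsf10* (Entrez 14105, chr4:135855752-135869908), the SR-like repressor, was at 228, 221, 219 and 180 CPM in *Arid1a* WT and 80.6, 79.6, 84.4 and 79.7 CPM in *Arid1a* cKO libraries. *Arid1a* WT replicate 4 was again the lowest of its group, and the groups did not overlap. On the log2 scale *Srsf10* changed by -1.38 (SE 0.07, edgeR adjusted p = 1.58e-10), a 2.61-fold lower level. Of its 31-base words, 12% also occur in other genes, led by *Gm5446* with 7.78% and *Gm9134* with 4.86%, neither of which is in the count table. None of the 9 genes shares such a word with another of the 9, and for the remaining genes 0 to 3.38% of words occur elsewhere.

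Set in order of TPM, the *Arid1a* WT libraries read *Ptbp2* (210), *Srsf10* (178), *Rbm5* (151), *Khdrbs3* (141), *Qk* (137), *Ptbp1* (113), *Khdrbs1* (62.2), *Ptbp3* (14.9) and *Khdrbs2* (0.113 to 2.6, with the 2.6 in replicate 3). From *Ptbp2* to *Qk* each gene overlapped the next in its range over libraries, and from *Qk* downward no neighbours did. In *Arid1a* cKO the order was *Ptbp2* (86.5), *Ptbp1* (86.3), *Srsf10* (80.6), *Khdrbs3* (79.9), *Qk* (56.7), *Rbm5* (31.2), *Khdrbs1* (23), *Ptbp3* (12.8) and *Khdrbs2* (1.3). Here *Ptbp2*, *Ptbp1*, *Srsf10* and *Khdrbs3* overlapped their neighbours and the others did not. *Ptbp1* thus moved from the sixth place to the second, and *Rbm5* from the third to the sixth. TPM is scaled to the whole library by the authors, and the listed genes held 78.073% to 81.144% of it in *Arid1a* WT and 88.09% to 88.641% in *Arid1a* cKO, so TPM levels between genotypes also carry this difference.

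Average transcript length could be read from the same tables, because estimated counts divided by TPM are proportional to the mean length of a gene's transcripts, weighted by abundance. For 4 of the 8 regulators with enough counts, the average transcript was shorter in *Arid1a* cKO, and for 1 it was slightly longer. The test was limma on the log2 of this length, centred on the median gene of each library, over 10850 genes with at least 50 counts in every library. Of those genes 15.3% were shorter and 5.45% longer in *Arid1a* cKO. *Khdrbs2* had too few counts to be tested. Lengths in bases came from a calibration of each library on 530 genes with a single annotated transcript. Of these, 265 were held out, and their lengths were predicted with a median error of 0.0669% to 0.114%. With 1 transcript the length is fixed by the annotation, so this error checks only the conversion to bases. It does not measure how well an average over several transcripts was estimated, as for the regulators.

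*Ptbp2* and *Ptbp3* had the lowest log2 differences in length, and their order turned without *Arid1a* WT replicate 4 (-0.48 and -0.50). The average *Ptbp2* transcript measured 1910, 1830, 1790 and 2080 bases in *Arid1a* WT and 1370, 1410, 1380 and 1300 bases in *Arid1a* cKO libraries. No library of one genotype reached the range of the other. The log2 difference was -0.53 (SE 0.054, limma adjusted p = 0.000615), and GENCODE M21 lists 13 transcripts of 389 to 4047 bases for this gene. Because shorter transcripts give fewer reads, the fall of *Ptbp2* is larger in counts (log2 fold change -1.67) than with length offsets in edgeR (-1.18).

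*Ptbp3* transcripts averaged 5050, 5040, 4490 and 4370 bases in *Arid1a* WT and 3530, 3180, 3560 and 3610 bases in *Arid1a* cKO libraries. The groups did not overlap, and the log2 difference was -0.46 (SE 0.07, limma adjusted p = 0.00353), close in size to its log2 fold change in counts. GENCODE lists 13 *Ptbp3* transcripts, from 447 to 6855 bases. One gene on the opposite strand, *1700018M17Rik*, holds 2.24% of its 31-base words.

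*Srsf10* averaged 1930, 1820, 1970 and 1760 bases in *Arid1a* WT and 1590, 1500, 1500 and 1350 bases in *Arid1a* cKO libraries. Again no library overlapped, and the log2 difference was -0.37 (SE 0.066, limma adjusted p = 0.00767). Its 4 protein-coding transcripts are 2225 to 3754 bases long, so the averages in both genotypes lie below the shortest of them. The authors' transcript set, from the mm10 known-gene annotation, need not be the same as GENCODE M21.

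*Rbm5* has 24 annotated transcripts, 13 of them classed as retaining an intron. Its average went from 2960, 2960, 2920 and 2720 bases in *Arid1a* WT to 2560, 2480, 2650 and 2450 bases in *Arid1a* cKO libraries, without overlap. The log2 difference was -0.19 (SE 0.041, limma adjusted p = 0.016), and it was -0.28 (adjusted p = 0.199) when libraries were not centred. Which transcripts account for these averages was not tested, since the tables hold values per gene.

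*Khdrbs1* was the gene called longer, from 3350 ± 49.9 to 3450 ± 47.1 bases (SD, n = 4), with a log2 difference of 0.05 (SE 0.014, limma adjusted p = 0.0315). That call was lost in bases (0.04, adjusted p = 0.0835) and when any of 6 libraries was left out, at adjusted p of 0.0522 to 0.0808. *Khdrbs3*, *Qk* and *Ptbp1* overlapped between genotypes. Their means were 1510 and 1440 bases for *Khdrbs3* (limma adjusted p = 0.455), 3910 and 3920 bases for *Qk* (0.787), and 2300 in both for *Ptbp1* (0.896).

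**Figure D3:**
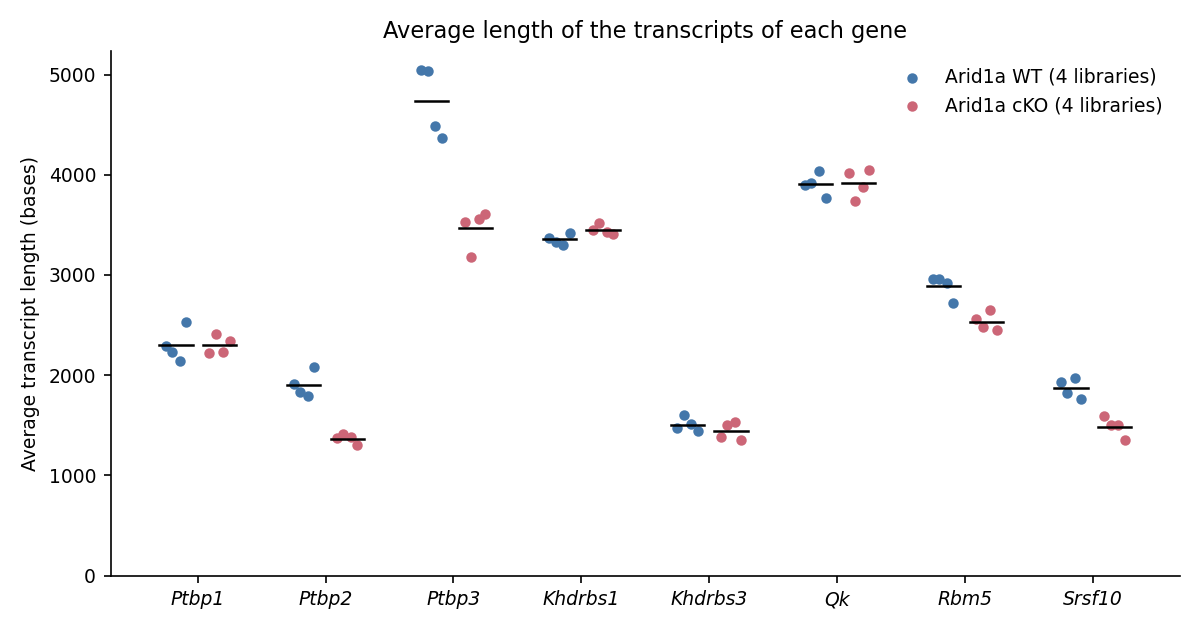
Average transcript length in bases (linear axis from 0) of the 8 splicing regulators with at least 50 counts in every library, with 1 point per library and a bar at the mean of 4. The *Arid1a* cKO points lie below all *Arid1a* WT points for *Ptbp2*, *Ptbp3*, *Rbm5* and *Srsf10*, and overlap them for *Ptbp1*, *Khdrbs1*, *Khdrbs3* and *Qk*.

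Other splicing genes were read from 6 lists with 122 genes, of which 121 were tested. Of these, 75 were lower and 30 higher in *Arid1a* cKO, with a median log2 fold change of -0.48, against -0.02 over all genes and -1.12 over the 9 regulators. Over all genes tested, 37.5% were called lower and 36.5% higher. All 12 SR proteins, the family that binds exonic enhancers and that *Srsf10* resembles, were lower, with a median of -1.1. *Tra2a*, which encodes an SR-like activator, fell from 106 ± 18.6 to 29.6 ± 1.43 TPM (SD, n = 4, log2 fold change -1.69, edgeR adjusted p = 9.03e-10). *Srsf11* fell from 234 ± 44.7 to 69.2 ± 5.45 TPM (-1.63, adjusted p = 2.79e-09). The 12 were also lower under each of 11 other tests and scalings. The 22 genes named by rule from the 6 lists kept their direction under those.

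The kinases that phosphorylate SR proteins moved both ways, with 2 of 7 tested higher, 3 lower and a median of -0.02. Such a split is near that of all genes tested, with 36.5% higher and 37.5% lower. *Srpk2* was higher (152 ± 8.48 to 284 ± 11.7 TPM, log2 fold change 0.61, edgeR adjusted p = 3.95e-08), as was *Clk3* (0.55, 7.86e-08). *Clk1* and *Clk2* were lower, at -0.83 (edgeR adjusted p = 5.33e-06) and -0.54 (1.5e-07). Over the other tests and scalings *Srpk2* ranged from 0.51 to 1.02, *Clk3* from 0.36 to 0.63 and *Clk2* from -0.86 to -0.51. With length offsets 4 kinases were higher instead of 2.

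Core spliceosome components were mostly lower, at 28 of 36 with 5 higher and a median of -0.66. Among all genes tested 37.5% were lower and 36.5% higher. *U2af2*, which encodes the large subunit of the factor that binds the polypyrimidine tract that PTBP1 also binds, had a log2 fold change of -1.47 (SE 0.04, edgeR adjusted p = 6.06e-13). *Prpf3*, for a protein of the U4/U6 particle, was at -1.29 (adjusted p = 7.57e-12). *Sf3b4* and *Snrpg* were higher, at 0.77 (edgeR adjusted p = 4.51e-09) and 0.7 (8.55e-08), though the size depended on the scale, with 0.48 to 0.8 and 0.32 to 0.73 over the other tests and scalings. *Snrpn*, named after its value was seen, had a log2 fold change of 2.79 but was at 0.253 TPM in *Arid1a* WT and 1.54 TPM in *Arid1a* cKO, with groups that overlapped.

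Of 28 hnRNP proteins, the family that PTBP1 belongs to, 19 were lower and 5 higher (37.5% and 36.5% of all genes tested). The median of the 28 was -0.35. The largest falls were those of *Pcbp1*, a poly(C)-binding protein, from 238 ± 10.2 to 32 ± 1.1 TPM (log2 fold change -2.76, edgeR adjusted p = 5.47e-14), and of *Hnrnpl*, from 353 ± 44 to 53 ± 2 TPM (-2.53, adjusted p = 8.28e-14; SD, n = 4). The largest rises were of X-linked genes, *Hnrnph2* (1.84, edgeR adjusted p = 3.38e-12) and *Rbmx* (1.01, 2.66e-06, and 0.62 to 1.04 over the other tests and scalings).

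Tissue-restricted regulators are known mostly from neurons, muscle and epithelia. Of 27 tested, 14 were higher and 8 lower (36.5% and 37.5% of all genes tested), with a median of 0.86. That median was 0.34 over the 25 genes that edgeR's filterByExpr kept. *Celf6* rose from 3 ± 0.3 to 12.3 ± 0.734 TPM (SD, n = 4, log2 fold change 2.16, edgeR adjusted p = 2.05e-10) and *Nova2* from 0.638 ± 0.117 to 2.49 ± 0.266 TPM (2.11, adjusted p = 4.16e-10), so both remained low. The log2 fold change of *Nova2* was 1.08 to 2.14 over the other tests and scalings. *Tial1* and *Tia1*, which are expressed in most tissues, fell, at -1.52 (edgeR adjusted p = 7.59e-11) and -1.36 (5.19e-08). The count higher ranged from 11 to 17 over the other tests and scalings.

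The last list held 11 relatives and partners of the 9 regulators, with 4 higher, 5 lower and a median of -0.08. These counts are near the shares over all genes tested, 36.5% higher and 37.5% lower. *Rbm10*, the X-linked relative of *Rbm5*, rose from 3.22 ± 0.311 to 9.96 ± 0.596 TPM (SD, n = 4, log2 fold change 1.82, edgeR adjusted p = 8.59e-12), opposite in direction to *Rbm5*. *Raver2*, which encodes a PTBP partner, was also higher but low (0.876 to 1.48 TPM, 0.91, adjusted p = 4.83e-05), with 0.34 to 0.94 over the other tests and scalings. *Srrm1* and *Srrm2*, splicing coactivators, fell, with log2 fold changes of -1.74 (edgeR adjusted p = 3.7e-13) and -1.12 (9.17e-09).

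**Figure D4:**
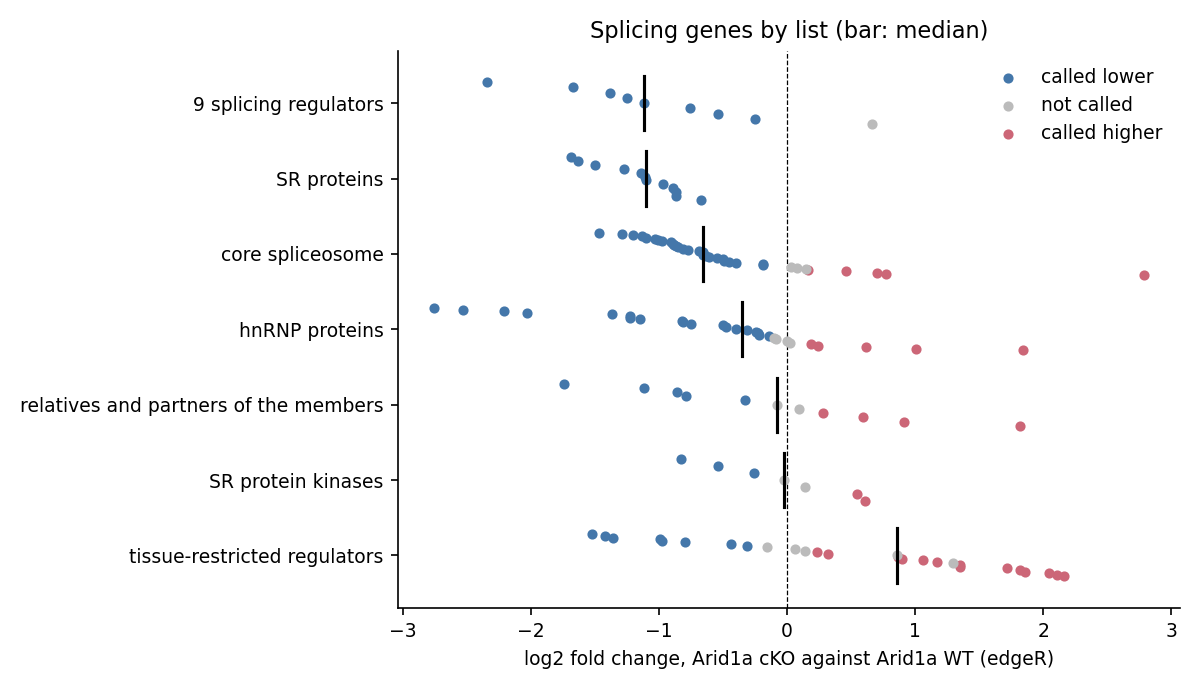
Log2 fold change in *Arid1a* cKO against *Arid1a* WT (edgeR, 1 point per gene, linear axis) for the 9 splicing regulators and the 6 lists of other splicing genes, coloured by call, with a bar at each median. The 9 regulators (median -1.12) and the SR proteins (-1.1) lie mostly below 0. Of the 27 tissue-restricted regulators 14 were called higher, against 36.5% of all genes tested.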

How the data were processed

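RNA-seq of pachytene spermatocytes was compared between 4 *Arid1a* WT and 4 *Arid1a* cKO libraries, grouped by the genotype in their labels. Reads were 50-base pairs from mRNA libraries. The authors quantified transcripts with Salmon on the mm10 known-gene annotation, summed them to genes with tximport, and deposited estimated counts, not normalized, and TPM. Salmon's version and strand setting are not given in the sources used here. The authors' DESeq2 table of fold changes and p-values was not used, and 0 columns of per-sample values were left out.

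The planned test assumed whole counts, so the estimates were rounded first. edgeR 4.0.16 was run on genes that reached 10 counts in total (TMM, glmQLFTest, genotype only, Benjamini-Hochberg over all 17643 genes). CPM used TMM-adjusted library sizes. Ratios within a family used log2(TPM + 0.1) and a two-sided exact permutation test over 70 assignments. Average transcript length was tested with limma 3.58.1, and its expression in bases was chosen after seeing the data. Symbols, positions and promoters came from RefSeq GRCm38.p6, in which 21036 of 21058 genes had a record, and transcripts from GENCODE M21.

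The 9 genes, the lists and the tests were chosen with earlier results of these data known. Beside the 9 genes and *Arid1a*, the text names from each list the 2 called genes with the largest rise and the 2 with the largest fall, provided their average log2 CPM was at least 1 and the genotypes did not overlap. Outside this rule, and named after their values were seen, are *Snrpn*, the 7 remaining relatives and partners, and the single cell type markers given. Marker lists of 8 cell types or groups were summed in TPM.

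Each library was counted as a separate sample, as labelled. No replicate pair agreed within counting noise: chi-square over genes, divided by its degrees of freedom, was 4.38 to 18 between *Arid1a* WT pairs and 1.71 to 3.45 between *Arid1a* cKO pairs. On simulated counts for 17643 genes with 200 changed 2-fold, edgeR found 100% of those changed, with 6.54% of its calls false. The 200 were drawn from genes with higher counts, as many raised as lowered, with 1 common dispersion for all genes. In the data 74% of the genes tested were called, so these rates need not hold there, nor for genes with few counts such as *Khdrbs2*. The alternatives were DESeq2 1.42.0, library size without TMM, DESeq2 size factors, filterByExpr, no filter beyond 1 count, length offsets, limma on TPM with a pseudocount of 1 or 0.1, a threshold of 0.01, the replicate number as a block, ratios of counts, other minima and no centring for length, and each library left out in turn. R 4.3.3, Python 3.11.15, pandas 2.3.3 and matplotlib 3.10.9 were used.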

Additional observations from a re-analysis of the deposited data

Results flagged for a closer look

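Among 46 groups of 4 libraries checked for a value that stands apart (the gap to its neighbour as a share of the range), 2 were picked out, where chance alone picks out about 1 in 20, or 2.3. The CPM of *Ptbp1* in *Arid1a* WT had a share of 0.878, because replicate 3 was at 155 CPM and the others at 171 to 173 CPM. The average transcript length of *Rbm5* in *Arid1a* WT had a share of 0.855, because replicate 4 was at -0.101 and the others at 0.0202 to 0.0408, in log2 units against the *Arid1a* WT mean. Without the library concerned, *Ptbp1* and *Rbm5* stayed called lower in counts, and *Rbm5* stayed called shorter.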

How the results depend on the processing

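The number of regulators called lower was 7 or 8 under every alternative, with *Ptbp3* as the call that was lost. Its log2 fold change was -0.12 with length offsets in edgeR, -0.10 with them in DESeq2 (adjusted p = 0.401), -0.20 in limma on log2(TPM + 1) and -0.21 on log2(TPM + 0.1) (adjusted p = 0.135 and 0.129), but -0.34 (adjusted p = 0.0208) on TPM rescaled to the listed genes, where it was still called. Leaving out each library in turn gave 0 to 1 regulators called higher and a *Khdrbs2* log2 fold change of 0.46 to 1.01, and the other 8 kept their calls. In estimated counts the log2 ratios differed by -1.42 (*Ptbp2* to *Ptbp1*), -0.29 (*Ptbp3* to *Ptbp1*, reversed), -1.13 (*Ptbp2* to *Ptbp3*) and 0.49 (*Khdrbs3* to *Khdrbs1*), each at an exact permutation p of 0.0429 after adjustment. For average length, leaving the libraries uncentred gave -0.07 for *Ptbp1*, -0.03 for *Khdrbs1* and -0.07 for *Qk*, all reversed, and -0.28 for *Rbm5*, no longer called, with 0 regulators longer. In bases, *Khdrbs1* was at 0.04, with 0 longer. Leaving out each library gave 0.04 to 0.06 for *Khdrbs1*, -0.02 to 0.06 for *Ptbp1*, -0.01 to 0.04 for *Qk*, and 0 to 1 longer. The causes were not tested. Same-numbered libraries did not deviate together (correlations of -0.0917 to 0.202), so the numbers were not taken as pairs. With the replicate number as a block, 13100 genes and 8 regulators lower were called, and *Khdrbs1* length (0.05, adjusted p = 0.113) was lost, leaving 0 longer. Rescaling TPM to the listed genes, chosen after seeing the data like the lengths in bases, put 38.9% of calls on the higher side, against 49.3% in counts, with the median gene at -0.13. Depth limits *Khdrbs2*, at 7 to 27 counts per library. Over the alternatives that kept all libraries, *Ptbp1* ranged from -0.54 to -0.22, and the count of genes called from 11671 to 13100. When a single library was dropped, that count lay between 12531 and 13135, and *Ptbp1* between -0.28 and -0.22.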

Other observations

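The relatives and partners not named above complete that list. *Rbm6*, the neighbour of *Rbm5* on chromosome 9, went from 88.7 ± 8.71 TPM in *Arid1a* WT to 42 ± 1.46 TPM in *Arid1a* cKO (SD, n = 4, log2 fold change -0.86, edgeR adjusted p = 5.74e-10). *Rbm17*, for a further spliceosomal RNA-binding protein, went from 61.6 ± 1.52 to 30.1 ± 1.23 TPM (-0.79, edgeR adjusted p = 8.81e-08). *Sf1*, for the branch point binding protein, was higher (246 ± 28 to 339 ± 18.1 TPM, 0.59, edgeR adjusted p = 5.32e-08), as was the helicase gene *Ddx5* (0.28, 0.000147). *Matr3*, whose product binds PTBP1, was lower (-0.33, edgeR adjusted p = 0.000213). *Raver1* and *Dhx15* were not called, at -0.08 (edgeR adjusted p = 0.177) and 0.09 (0.118).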
